A study of Arabidopsis thaliana with 6 samples.

Results

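The 10 genes described here make, modify or carry the lipids of the plant cuticle: the ketoacyl-CoA synthases KCS6 and KCS1, the alkane-forming proteins CER1 and CER3, the alcohol-forming reductase CER4, the cytochromes P450 MAH1, CYP96A12 and CYP96A5, and the lipid-transfer proteins LTP1 and LTP2. They are 10 of the 24439 genes in the files. They were chosen by name and with their measured values in these same libraries known, so their levels are given as a description, with no p-value, and the counts of them past a threshold support nothing. RNA was sequenced from ground Arabidopsis thaliana seedlings. The seeds were stratified for 3 days at 4 °C in darkness, given 12 h of white light and kept in the dark at 22 °C for 4 days, in all groups alike. The wild type is Col. The mutant f1f3 is homozygous for lesions in FYPP1 and FYPP3, which encode the catalytic part of the phosphatase PP6. The label of pifq, which is misspelled, was read as homozygous for lesions in PIF1, PIF3, PIF4 and PIF5, basic helix-loop-helix factors that keep seedlings from greening and opening before they reach light. Each group had 2 biological replicates, whose number of seedlings is not given in the sources used here.

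The deposited value of a gene is its read number divided by a size factor of the library. The libraries held 17.9 to 27.7 M reads recovered from these values. FYPP1 and FYPP3 had lower values in both f1f3 libraries than in both Col libraries, and PIF3 and PIF5 had lower values in both pifq libraries, whereas PIF1 and PIF4 had higher values there. In pifq replicate 1 the 9 seed storage and oil body genes summed to 20196, against 20.3 to 168 in the other 5 libraries. The pifq values of the 10 genes are therefore given for both libraries. For several genes outside the 10 only a mean and SD or a log2 difference is given. Between 1 and 4 of the 9 were at 0 in each of those 5 libraries. The part of this difference in the results below was not tested.

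The cuticle is the lipid layer that covers the aerial epidermis and limits water loss. Its waxes start from fatty acids that the elongase complex lengthens in the endoplasmic reticulum, with a ketoacyl-CoA synthase choosing the chain length. The very long chains then pass either to the alkane pathway, whose core is CER1 with CER3, or to the alcohol pathway, whose reductase is CER4. MAH1 (CYP96A15) hydroxylates alkanes to secondary alcohols and ketones in stem wax. Lipid-transfer proteins are small secreted proteins that bind lipids in the cell wall, and LTP2 is known for a role at the cuticle of dark-grown hypocotyls.

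LTP1 (AT2G38540) and LTP2 (AT2G38530) are tandem genes on the plus strand of chromosome 2, and their coding sequences are shown because they behaved in opposite ways in pifq. In TAIR10.1, LTP2 lies at chr2:16128176-16129399 and LTP1 at chr2:16130290-16131240, with 890 bases between them. Each has 2 exons and a coding sequence of 357 bases, of which 294 are identical between the genes (82.4%). The first 150 coding bases follow, from the RefSeq annotation, with the 28 bases that differ between the genes in capitals.
LTP1: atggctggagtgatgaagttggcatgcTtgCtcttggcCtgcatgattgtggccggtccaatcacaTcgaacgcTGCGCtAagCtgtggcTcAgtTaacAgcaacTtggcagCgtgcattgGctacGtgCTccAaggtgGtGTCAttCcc
LTP2: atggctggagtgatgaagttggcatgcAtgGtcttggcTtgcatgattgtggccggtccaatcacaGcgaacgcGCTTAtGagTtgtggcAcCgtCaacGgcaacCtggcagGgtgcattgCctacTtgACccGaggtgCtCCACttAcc
Most of the differing bases lie in the later part of the stretch, and its opening bases are the same in both genes. No run of 50 bases in the exons of either gene occurred in the exons of another gene, and the same held for the other 8 genes.

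The sequence before the annotated start was searched on both strands for 4 short motifs. These were the G-box CACGTG and the PBE-box CACATG, both bound by PIF proteins, the L1 box (TAAATGCA or TAAATGTA) of epidermal genes, and TAACTA, a hexamer of the kind that MYB proteins bind. No 2 of these motifs overlap in the windows shown. In the 250 bases before the start none of the 10 genes had a G-box or an L1 box, against 6.49% and 4.49% of 27443 protein-coding genes. MAH1 had a PBE-box 193 bases before its start, a motif that 11.1% of genes hold in such a window. The hexamer TAACTA was found in KCS6, MAH1, CYP96A5 and LTP1, and in 20.6% of all genes. The windows of the tandem LTP genes and of MAH1 are shown as examples of genes whose pifq values stood apart from both other groups. Those of CER1, CYP96A12 and CYP96A5 stood apart too, and their windows are not shown. Any motif found, on either strand, is in capitals, and the minus-strand gene MAH1 is given in its own direction.
LTP1 (chr2:16130040-16130289, plus strand): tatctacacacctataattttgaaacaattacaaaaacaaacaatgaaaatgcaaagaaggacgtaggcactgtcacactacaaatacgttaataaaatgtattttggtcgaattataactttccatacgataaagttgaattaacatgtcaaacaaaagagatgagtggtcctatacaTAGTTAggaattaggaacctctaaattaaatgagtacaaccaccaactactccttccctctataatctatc
LTP2 (chr2:16127926-16128175, plus strand): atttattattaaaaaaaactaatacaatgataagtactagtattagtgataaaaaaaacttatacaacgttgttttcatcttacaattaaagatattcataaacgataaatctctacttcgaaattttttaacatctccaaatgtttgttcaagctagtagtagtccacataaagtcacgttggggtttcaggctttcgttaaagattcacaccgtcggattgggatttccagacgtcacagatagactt
MAH1 (chr1:21385710-21385959, minus strand): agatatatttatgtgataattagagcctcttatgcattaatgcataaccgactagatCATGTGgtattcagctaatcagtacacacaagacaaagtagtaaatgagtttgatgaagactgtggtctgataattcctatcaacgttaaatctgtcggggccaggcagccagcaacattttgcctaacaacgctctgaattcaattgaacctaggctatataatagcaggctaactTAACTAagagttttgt
LTP1 holds TAACTA 71 bases before its start, on the opposite strand, and MAH1 holds it 16 bases before. The LTP2 window of 250 bases holds none of the 4 motifs.

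Within 1000 bases a PBE-box was found in KCS1, MAH1, CYP96A12, LTP1 and LTP2, and in 37.7% of all genes. An L1 box was found in KCS6 and LTP2, and in 15.8% of all genes. TAACTA was found in each of the chosen genes but CER4, and in 56.1% of all genes. The G-box, which 14.8% of all genes hold there, was found in CER1, MAH1 and LTP1, with 1 each. That of CER1 lies 494 bases before its start and inside the neighbouring gene AT1G02190, which ends 388 bases before CER1. Those of MAH1 and LTP1 lie between genes, 573 and 605 bases before the start, and are shown with 20 bases on each side and the G-box in capitals.
MAH1 (chr1:21386257-21386302, minus strand): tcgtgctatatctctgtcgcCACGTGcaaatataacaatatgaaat
LTP1 (chr2:16129665-16129710, plus strand): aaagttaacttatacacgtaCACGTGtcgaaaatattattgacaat
A match of letters is a description of the sequence. Binding was not measured here.

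In pifq, CER1, CYP96A5 and LTP2 were far lower than in Col, MAH1, CYP96A12 and LTP1 were far higher, and CER3 stayed near its wild-type value. In f1f3, MAH1, CYP96A12, LTP1 and CER4 were higher than in Col. There CER1 and CER3 differed from Col by at most 0.14 on the log2 scale. KCS6 and KCS1 were below both Col libraries in both mutants, by -0.82 and -0.67 in f1f3 and by -0.57 and -1.12 in pifq. All 10 genes passed the filter on low values, which asked for 2 or more libraries at a deposited value of 10 or above. MAH1 passed it only through the pifq libraries, where it is high. With limma on log2(value + 1), 3 of the 10 passed as higher and 0 as lower in f1f3, where 11.6% of the 20581 genes tested rose and 12.8% fell. In pifq against Col 3 passed as higher and 3 as lower, against 3.61% and 2.87% of all genes. In pifq against f1f3 1 passed as higher and 3 as lower, against 9.36% and 6.63% of all genes. Since the genes were selected on these values, nothing is read from these counts, which stand only beside the background. Both mutants are compared with the same Col libraries.

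**Figure D1:**
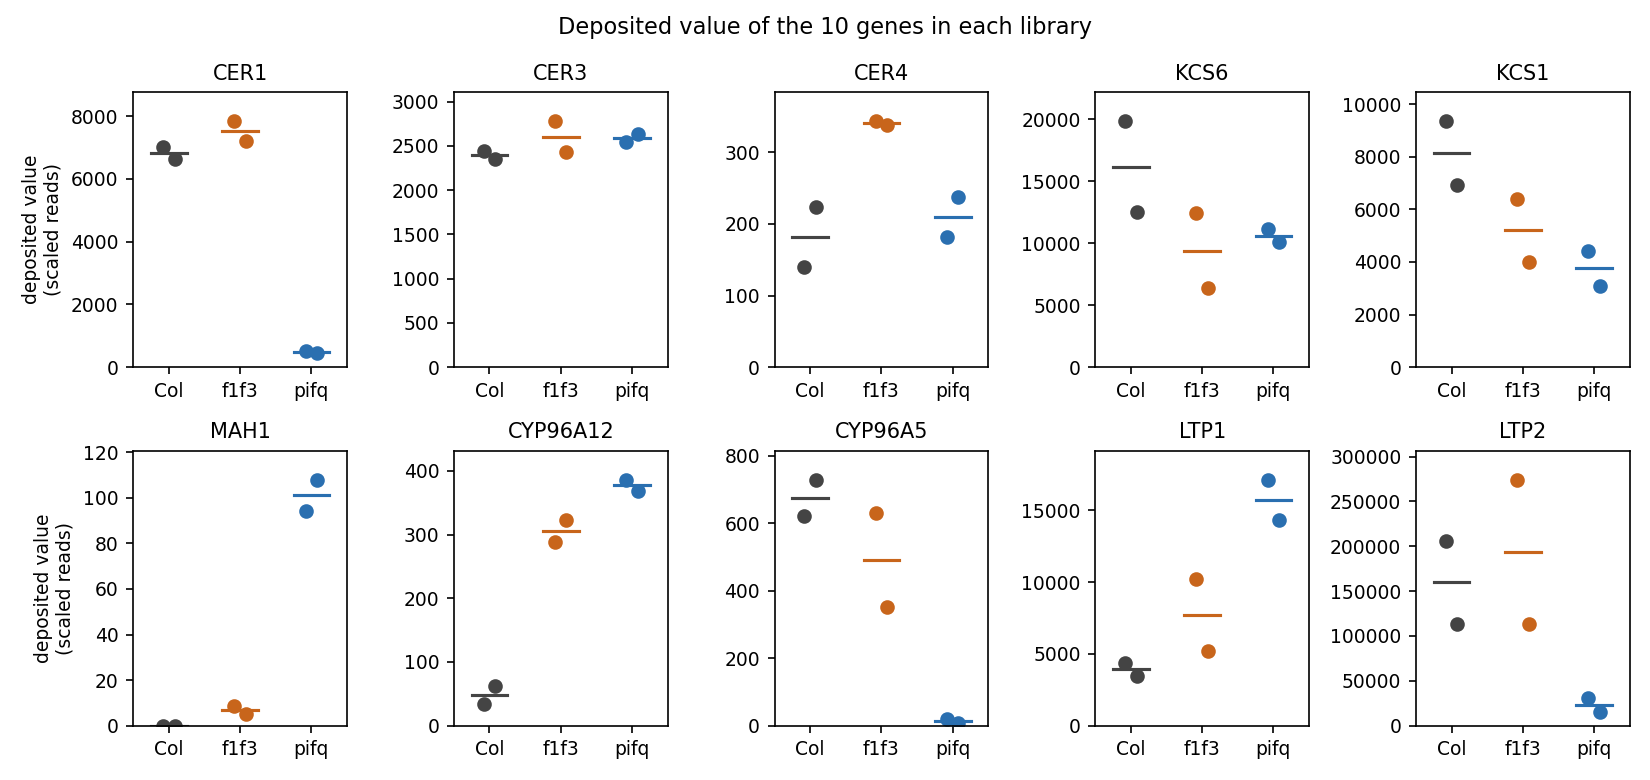
Deposited value (reads scaled per library, linear axis from 0) of each of the 10 genes in Col, f1f3 and pifq. Points are the 2 libraries of a group and bars are their mean. CER1, CYP96A5 and LTP2 are lowest in both pifq libraries, MAH1, CYP96A12 and LTP1 are highest there, and the CER3 values stay between 2351 and 2775.

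The ketoacyl-CoA synthases were the elongation enzymes of the set. KCS6 (AT1G68530, chr1:25712414-25715024, minus strand), which lengthens very long acyl chains for shoot wax, had values of 19831.8 and 12506.8 in Col, 12432.9 and 6393.5 in f1f3, and 11143.5 and 10070.8 in pifq. Both mutants lay below both Col libraries, f1f3 replicate 1 only just, and the libraries of f1f3 and pifq overlapped. On the log2 scale KCS6 was lower than Col by -0.82 in f1f3 and by -0.57 in pifq. When single libraries were left out the difference ran from -1.30 to -0.34 in f1f3 and from -0.90 to -0.24 in pifq. In Col and in f1f3 the higher library was more than 1.5 times the lower.

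KCS1 (AT1G01120, chr1:57164-59215, minus strand), a condensing enzyme of wax synthesis in stems and seedlings, had values of 9340.2 and 6924.2 in Col and of 6396.4 and 4001.6 in f1f3. In pifq it had 4402.3 and 3104.2. Both mutants were again below both Col libraries, and they overlapped with each other. The differences from Col were -0.67 in f1f3 and -1.12 in pifq on the log2 scale. When single libraries were left out they ran from -1.01 to -0.33 and from -1.37 to -0.87. The ratio of KCS1 to KCS6 within a library, which the library's scaling cannot alter, was 0.471 and 0.554 in Col, 0.514 and 0.626 in f1f3, and 0.395 and 0.308 in pifq. It was thus lower in both pifq libraries than in any other library. The coding sequences of KCS1 and KCS6 were identical at 65.7% of their aligned bases.

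CER1 (AT1G02205, chr1:418416-422579, plus strand), which with CER3 turns very long acyl chains into alkanes, showed the clearest separation among the wax enzymes. Its values were 7018 and 6637.1 in Col, 7825.6 and 7205.4 in f1f3, and 517.4 and 447.2 in pifq. The pifq libraries stood below all others, with a mean of 482 ± 49.6 (SD, n = 2) against 6828 ± 269 in Col, a 14.2-fold lower value. The difference from Col was -3.82 on the log2 scale in pifq and 0.14 in f1f3. Without pifq replicate 1 it was -3.93 in pifq. In RNA from bulk seedlings, fewer cells of a type and less RNA per cell cannot be told apart, here or in any value below.

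CER3 (AT5G57800, chr5:23420184-23424117, plus strand), the partner of CER1, did not share that difference. Its values were 2440.4 and 2350.7 in Col, 2774.8 and 2431.3 in f1f3, and 2539.3 and 2628.6 in pifq. The pifq and f1f3 libraries overlapped, and the lowest pifq value, 2539.3, was just above the highest Col value, 2440.4. The log2 differences from Col were 0.12 in f1f3 and 0.11 in pifq.

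The ratio of CER1 to CER3 in the same library shows the split between the partners. It was 2.88 and 2.82 in Col, 2.82 and 2.96 in f1f3, and 0.204 and 0.170 in pifq. The 4 Col and f1f3 libraries lay close together and the pifq libraries were more than 10-fold lower. Per kilobase of exon, the CER1 level was 1900 in Col, 2092 in f1f3 and 134 in pifq, and the CER3 level was 925, 1005 and 998. By this level per length CER1 was above CER3 in Col and f1f3 and below it in pifq.

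CER4 (AT4G33790, chr4:16204096-16207956, minus strand), the reductase that makes primary alcohols, was highest in f1f3. Its values were 140.1 and 224 in Col, 343 and 337.9 in f1f3, and 181.3 and 237.2 in pifq. Both f1f3 libraries were above all others, and the Col and pifq libraries overlapped. The mean was 340 ± 3.61 in f1f3 and 182 ± 59.3 in Col (SD, n = 2), a log2 difference of 0.94, which ran from 0.60 to 1.28 when single libraries were left out. In pifq the difference from Col was 0.23, and it changed sign to -0.11 without Col replicate 1.

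The cytochromes P450 of the CYP96A family went in both directions. MAH1 (AT1G57750, chr1:21383812-21385709, minus strand) had no read in either Col library. It had values of 8.5 and 5.3 in f1f3 and of 94.2 and 107.8 in pifq, from 14 and 213 reads in all. The groups did not overlap, and pifq was above f1f3 in both libraries. Set against a floor of 3 reads over both Col libraries, the level was 4.30-fold higher in f1f3 and 63.9-fold higher in pifq. The floor stands for Col only, and the counting error of the 14 and 213 reads is not in these folds. MAH1 could not be fitted without either pifq library, since it then failed the filter. Between the mutants the pifq mean was 14.6-fold above that of f1f3. This floor and the read numbers cover counting error only.

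CYP96A12 (AT4G39510, chr4:18368685-18370698, minus strand) was higher in both mutants. Its values were 33.4 and 62.1 in Col, 288 and 322.1 in f1f3, and 385.7 and 368.9 in pifq. All 3 groups were apart, with a wide gap between Col and the mutants and a narrow one between the mutants. The mean was 6.39-fold higher than Col in f1f3 and 7.90-fold higher in pifq. The log2 differences were 2.71 and 3.02, and pifq was 0.31 above f1f3.

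CYP96A5 (AT2G21910, chr2:9341431-9343220, plus strand) went the other way. Its values were 620.7 and 728.1 in Col, 631 and 352 in f1f3, and 20.8 and 7.9 in pifq. The Col and f1f3 libraries overlapped and both pifq libraries were far below them. The mean was 674 ± 75.9 in Col and 14.3 ± 9.12 in pifq (SD, n = 2), a 47.0-fold lower value that rests on 33 reads in pifq. The log2 difference of -5.59 became -6.24 without pifq replicate 1 and -4.95 without pifq replicate 2.

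No pair among MAH1, CYP96A12 and CYP96A5 was more than 70.7% identical in coding sequence. CYP96A12 lies in a cluster of 4 family members on chromosome 4. By coordinate CYP96A9 (AT4G39480), CYP96A10 and CYP96A11 (AT4G39500) precede it. CYP96A11, which is on the minus strand like CYP96A12, lies 153 bases from CYP96A12 and is 77.9% identical to it. CYP96A10 was not analysed here. The neighbours did not share the order of CYP96A12. CYP96A11 had 39.8 and 52.5 in Col, 166.2 and 169.4 in f1f3, and 56.7 and 23.8 in pifq, and rose in f1f3 by 1.85 on the log2 scale (SE 0.43, limma adjusted p = 0.0195). That call was lost in each fit without 1 of the Col or f1f3 libraries, with adjusted p from 0.0506 to 0.0947. CYP96A9 had 131.1 and 155.8 in Col, 12.7 and 10.5 in f1f3, and 230.8 and 205.4 in pifq, and fell in f1f3 (-3.52, SE 0.30, limma adjusted p = 0.00115). In f1f3 CYP96A11 was thus above Col, as CYP96A12 was, and CYP96A9 was below. In pifq, where CYP96A12 was high, CYP96A11 overlapped with Col. Both CYP96A9 libraries of pifq were above both Col libraries (0.60, SE 0.30, limma adjusted p = 0.271).

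**Figure D2:**
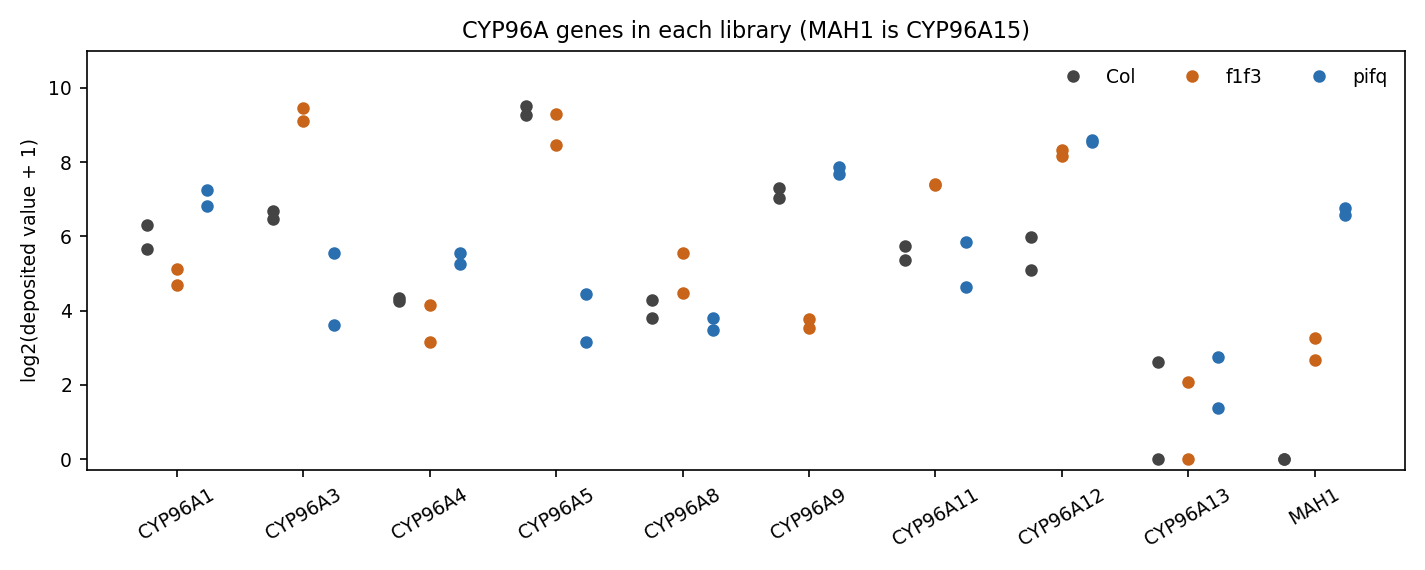
Level of the 10 CYP96A genes in the files, as log2(deposited value + 1), with 1 point per library and a colour per group. MAH1 and CYP96A12 are higher in both mutants than in Col, CYP96A5 is low in both pifq libraries, and CYP96A3 and CYP96A9 differ most between f1f3 and Col among the other 7.

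Outside the 3 chosen genes, 7 further CYP96A genes were in the files and 6 could be tested. In f1f3 2 rose and 1 fell. CYP96A3 (AT1G65340) rose from 94.5 ± 9.97 to 622 ± 105 (2.70, SE 0.55, limma adjusted p = 0.0125), a call lost without f1f3 replicate 2 (adjusted p = 0.0799). Without that library neither rise remained, and 1 was left without either Col library or f1f3 replicate 1. In pifq against Col none of the 6 passed with limma or with edgeR, and 1 fell with DESeq2. At an unadjusted p under 0.05, 1 was higher and 1 was lower. Without pifq replicate 1, 1 fell with limma.

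LTP2 had the highest level per kilobase of the 10 genes in every library but pifq replicate 2, where LTP1 was higher. Its values were 206351.2 and 113471.1 in Col, 273915 and 113117 in f1f3, and 30895.9 and 15622 in pifq. The Col and f1f3 libraries overlapped, and in each group the higher library was more than 1.5 times the lower. Both pifq libraries were below all others, at a mean 6.88-fold below Col. The log2 difference in pifq was -2.80, and it was -3.29 without pifq replicate 1 and -2.31 without pifq replicate 2. In f1f3 it was 0.20, with a sign that changed to -0.44 without f1f3 replicate 1. LTP2 alone took between 0.0710% (95% Wilson interval 0.0698 to 0.0722) and 1.28% (1.28 to 1.29) of the reads of a library, the lowest in pifq replicate 2 and the highest in f1f3 replicate 1.

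LTP1 ran the other way in pifq. Its values were 4386.1 and 3461.2 in Col, 10257.4 and 5226.1 in f1f3, and 17124.4 and 14320.2 in pifq. The 3 groups did not overlap, with pifq highest and Col lowest. The mean was 4.01-fold higher than Col in pifq, a log2 difference of 2.01. In f1f3 the log2 difference was 0.91, and it was 0.42 without f1f3 replicate 1 and 1.40 without f1f3 replicate 2.

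As shares of the reads of the tandem pair, the library's scaling drops out. LTP1 took 2.08% (95% Wilson interval 2.01 to 2.15) and 2.96% (2.87 to 3.05) of the pair's reads in the Col libraries. The shares were 3.61% (3.54 to 3.68) and 4.42% (4.31 to 4.53) in f1f3, and 35.7% (35.3 to 36.0) and 47.8% (47.2 to 48.4) in pifq. The intervals cover counting error only. The groups did not overlap, and the pifq libraries stood far above the rest. In reads, LTP2 exceeded LTP1 by 47.0 and 32.8 times in Col, by 26.7 and 21.6 times in f1f3, and by 1.80 and 1.09 times in pifq. Per kilobase the LTP1 level was 4716 in Col, 9305 in f1f3 and 18897 in pifq, and the LTP2 level was 143676, 173869 and 20898.

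**Figure D3:**
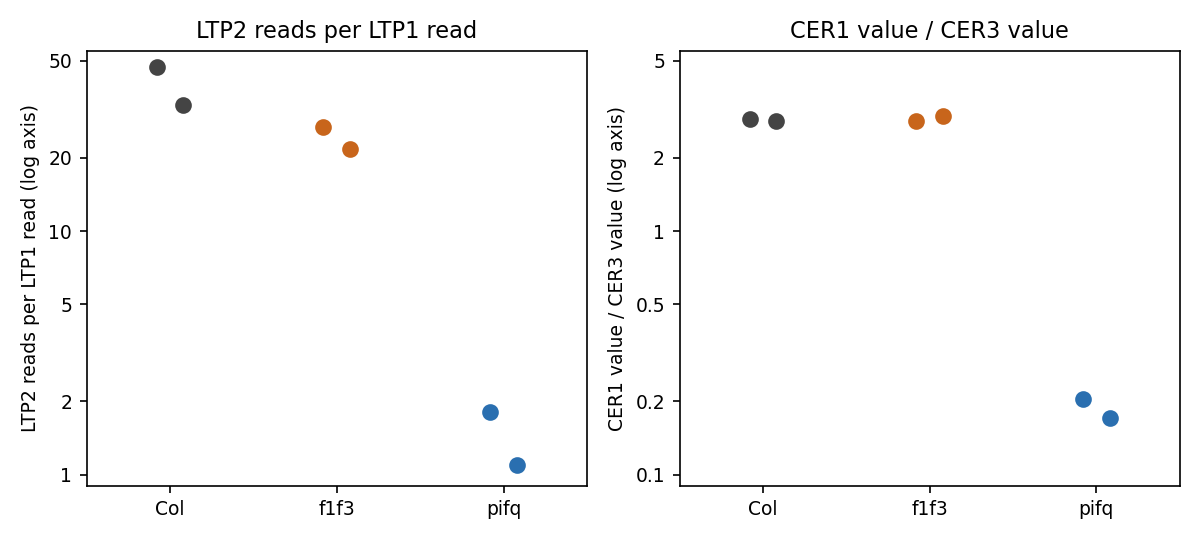
Ratios within each library on log axes, for LTP2 reads per LTP1 read (left) and CER1 value over CER3 value (right), with 1 point per library. Both pifq libraries lie below all Col and f1f3 libraries in both panels, at 1.80 and 1.09 for the LTP genes and 0.204 and 0.170 for CER1 over CER3.

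Of 13 listed further genes for lipid-transfer proteins, 8 were in the files and 6 were tested. In f1f3 1 rose, and in pifq 2 rose and 0 fell. AT5G01870, annotated as a member of the lipid-transfer superfamily, rose in both. It went from 110.5 and 79.6 in the Col libraries to 1313 ± 165 in f1f3 (3.79 on the log2 scale, SE 0.25, limma adjusted p = 0.000805). In pifq it stood at 328 ± 75.1 (1.78, SE 0.25, limma adjusted p = 0.00773, and 0.0544 without pifq replicate 1). LTP6 (AT3G08770) rose in pifq to 458 ± 9.97 from 126 ± 53.8 (1.91, SE 0.32, limma adjusted p = 0.0146), a call lost without Col replicate 2 (0.0528), pifq replicate 1 (0.0913) or pifq replicate 2 (0.0651). Without pifq replicate 1 neither of these rises passed, and 1 of them passed without Col replicate 2 or pifq replicate 2. With edgeR or DESeq2 also none of the 6 fell in pifq, and none was lower at an unadjusted p under 0.05. LTP4 (AT5G59310) and AT4G33355 failed the filter and were not tested, and both were at 0 in both pifq libraries. In the Col libraries LTP4 had 129.8 and 4.4, and AT4G33355 had 2.6 and 14.

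The other genes of the pathway were described through lists of 91 genes, of which 78 were in the files and 68 were tested. In f1f3 15 rose and 5 fell, with a median log2 fold change of 0.22 against -0.00 over all genes tested. In pifq 10 rose and 6 fell, with a median of 0.20 against -0.01. The shares of all genes called, given above, are the background for these counts. Without Col replicate 2 or f1f3 replicate 2 the 20 calls in f1f3 became 11, and the 5 falls among them became 2 there and without Col replicate 1. The 16 in pifq became 10, 7, 8 and 9 without Col replicate 1, Col replicate 2, pifq replicate 1 and pifq replicate 2.

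Some elongation genes rose in f1f3, where KCS6 and KCS1 were below Col. Of 21 tested, 6 rose and 0 fell there (median 0.42), and at an unadjusted p under 0.05 1 was lower. edgeR and DESeq2 also called 0 lower. The 6 rises became 3 without f1f3 replicate 2. LACS2 (AT1G49430), an acyl-CoA synthetase of cutin synthesis, rose from 662 ± 108 to 1579 ± 298 (1.25, SE 0.20, limma adjusted p = 0.00591). KCS4 (AT1G19440) and KCS5 (AT1G25450), further ketoacyl-CoA synthases, rose by 0.97 and 0.92.

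In pifq 5 of the 21 elongation genes rose and 2 fell (median 0.02). CER26 (AT4G13840), a protein that acts with the elongase on very long chains, rose from 123 ± 0 to 1053 ± 38.5 (3.08, SE 0.20, limma adjusted p = 0.000205), with the same value of 123.4 in both Col libraries. KCS2 (AT1G04220), a ketoacyl-CoA synthase of suberin and wax, fell from 1717 ± 430 to 454 ± 8.27 (-1.89, SE 0.21, limma adjusted p = 0.00305). The 5 rises became 3, 2, 2 and 3 without Col replicate 1, Col replicate 2, pifq replicate 1 and pifq replicate 2, and the 2 falls became 1 in each of these fits.

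Of the 5 tested genes for alcohols, esters and a further alkane-type enzyme, 1 fell in f1f3 and 2 in pifq with limma, and 0 rose in either with all libraries. Without Col replicate 1, 1 rose in f1f3. FAR1 (AT5G22500), a reductase of the CER4 family known for alcohols of root suberin, fell in pifq from 11348 ± 374 to 1798 ± 376 (-2.67, SE 0.24, limma adjusted p = 0.00128). CER4 was not lower there. FAR1 in f1f3 was -0.79 (limma adjusted p = 0.0448), a call lost under several alternatives, among them edgeR (0.0576) and the fits that left out a Col library (0.146 and 0.132), f1f3 replicate 2 (0.212) or pifq replicate 2 (0.0513). WSD1 (AT5G37300), the wax ester synthase, fell in pifq (-2.19, limma adjusted p = 0.0273) but not without Col replicate 1 (0.0516), Col replicate 2 (0.134) or pifq replicate 2 (0.0879). edgeR and DESeq2 also called 0 of the 5 higher in either mutant, and at an unadjusted p under 0.05 1 was higher in f1f3 and 0 in pifq.

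Of the 6 export genes 1 rose in f1f3 with limma and with edgeR, and 2 with DESeq2. That was LTPG2 (AT3G43720), a membrane-anchored lipid-transfer protein (1.09, SE 0.20, limma adjusted p = 0.00868, and 0.0622 without Col replicate 2). At an unadjusted p under 0.05, 2 were higher there. In pifq 0 passed with limma, edgeR or DESeq2, and 1 was higher at an unadjusted p under 0.05. Of the 14 cutin genes 5 rose and 1 fell in f1f3 with limma. In pifq 3 of them rose with limma, and 1 fell, whereas edgeR called 2 lower and DESeq2 called 3 lower. LTL1 (AT3G04290), a GDSL lipase, rose from 1171 ± 139 in Col to 5312 ± 400 in f1f3 (2.18, SE 0.18, limma adjusted p = 0.00115) and 4735 ± 485 in pifq (2.02, SE 0.18, adjusted p = 0.00138). CYP86A4 (AT1G01600), a fatty acid hydroxylase of cutin synthesis, fell in pifq from 934 ± 94.6 to 212 ± 27.4 (-2.13, SE 0.22, limma adjusted p = 0.00236). The 5 cutin rises in f1f3 became 3 without Col replicate 2, and the fall did not pass without either Col or either f1f3 library. The 3 rises in pifq became 1 without Col replicate 2 or either pifq library and 2 without Col replicate 1.

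Of 10 tested regulators of the pathway 2 fell in f1f3 and 1 in pifq, and 0 rose with limma in either. DEWAX (AT5G61590), a repressor of wax genes, fell in f1f3 from 582 ± 27.7 to 176 ± 49.7 (-1.75, SE 0.22, limma adjusted p = 0.00311) and stood at 875 ± 23.8 in pifq (0.59, adjusted p = 0.161). MYB96 (AT5G62470), an activator of wax genes, fell in pifq from 725 ± 61.9 to 248 ± 37.3 (-1.55, SE 0.26, limma adjusted p = 0.0158), but not without Col replicate 1 (0.0766), Col replicate 2 (0.0528) or pifq replicate 1 (0.101). CER9 (AT4G34100), a ubiquitin ligase that restrains wax and cutin, fell in f1f3 (-0.72, limma adjusted p = 0.0194), a call that was lost with f1f3 replicate 2 left out (0.0901) or either Col library (0.0978 and 0.0888). For rises among the 10, edgeR and DESeq2 gave 0 in f1f3 and 1 in pifq, and 1 and 3 were higher at an unadjusted p under 0.05.

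**Figure D4:**
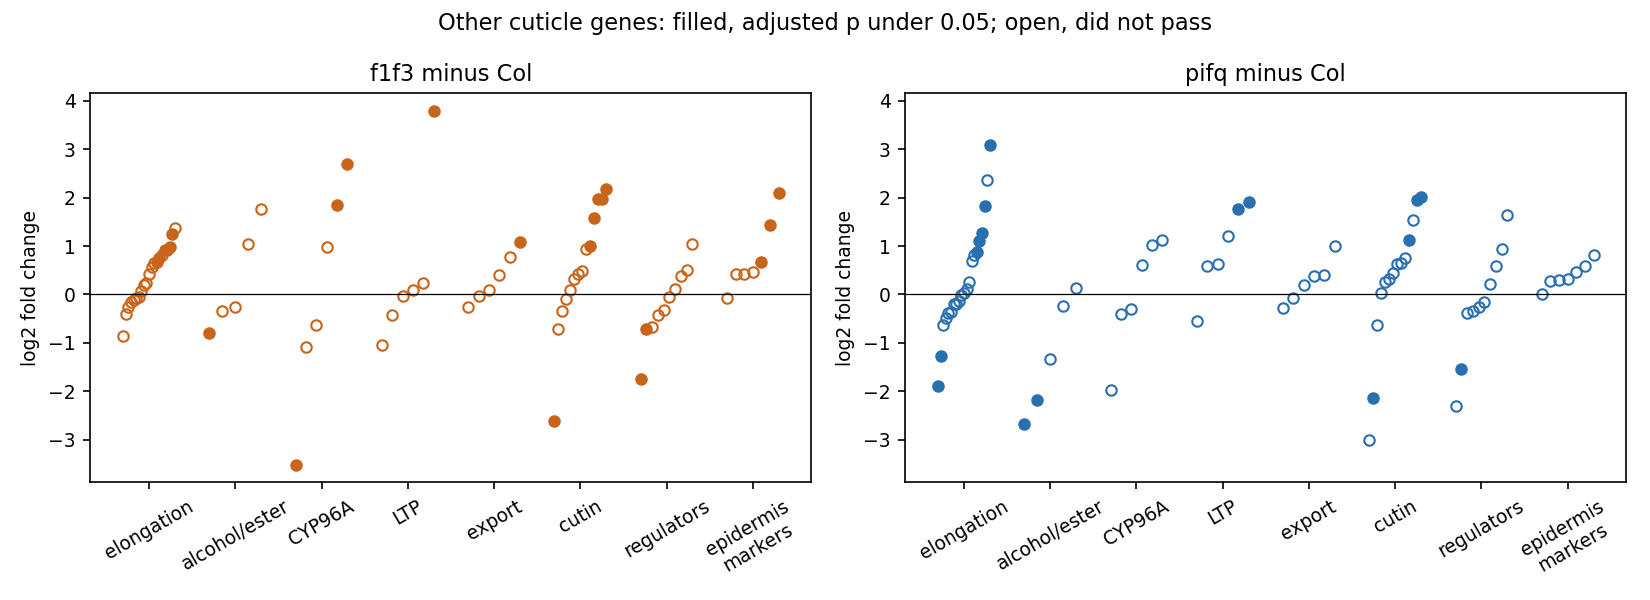
Log2 fold change of each tested gene of the pathway lists and of the epidermis markers, in f1f3 (left) and pifq (right) against Col, with 1 point per gene and the 10 chosen genes left out. Filled points had a limma adjusted p under 0.05. In f1f3 6 elongation and 5 cutin genes are filled above 0, and in pifq 5 and 3.

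Markers of the epidermis, the tissue that makes the cuticle, were examined beside the 10 genes. The 7 markers summed to 27763 and 20847 in Col, 63782 and 51328 in f1f3, and 24248 and 28962 in pifq, and none was at 0 in any library. PDF1 (AT2G42840) carried most of each sum, with 21561.5 and 14608.9 in Col, 54881 and 41696.2 in f1f3, and 15225.5 and 20854.3 in pifq. In a split made after the values were seen, the other 6 summed to 6201.9 and 6238 in Col, 8901.2 and 9631.4 in f1f3, and 9022.6 and 8107.2 in pifq. Without PDF1 both mutants were thus above both Col libraries and overlapped with each other. With limma 3 of the 7 rose in f1f3, namely HDG12, PDF1 and PDF2, and 0 fell, against 11.6% and 12.8% of all genes. PDF2 did not pass without any 1 of the Col or f1f3 libraries (limma adjusted p from 0.0614 to 0.135), and PDF1 did not without Col replicate 2 (0.139) or f1f3 replicate 1 (0.0631). In f1f3 edgeR, DESeq2 and an unadjusted p under 0.05 gave 0 lower. In pifq 0 passed with limma or edgeR, against 3.61% of all genes that rose, 1 rose with DESeq2, and 2 were higher at an unadjusted p under 0.05.

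The 7 markers of suberized root tissue summed to 4230 to 7000 in Col, 2740 to 4648 in f1f3 and 2763 to 2780 in pifq, with none at 0. The f1f3 sums overlapped with those of Col, and the pifq sums were below both Col libraries. With limma 1 of the 7 rose in f1f3 and 0 fell. This was CYP86A1 (AT5G58860), a fatty acid hydroxylase of root suberin, at 114.4 and 37.6 in Col and 428.8 and 284.4 in f1f3 (2.39, SE 0.48, limma adjusted p = 0.0123, and 0.0595 without f1f3 replicate 1). In f1f3 edgeR called 1 higher and 0 lower and DESeq2 called 1 higher and 2 lower, and 2 were lower at an unadjusted p under 0.05. ASFT, CASP2 and CASP1 were lower in f1f3 (-0.72, -0.98 and -0.76 on the log2 scale) but did not pass with limma. The median of the 7 in f1f3 was -0.05. In pifq 0 passed with limma or edgeR, DESeq2 called 2 lower, and 3 were lower at an unadjusted p under 0.05. The part of the epidermis and root markers in the values of the 10 genes was not tested.

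The genes most like the leading member of each kind were named from 8100 candidates by Pearson's r of log2(value + 1) over the 6 libraries, as a description. The members taken were those with the highest mean value among the wax enzymes, the CYP96A genes and the lipid-transfer genes. For KCS6 they were AT1G08670, AT5G57815 and NSP5 (AT5G48180), with r from 0.992 to 0.994. For CYP96A5 the first was PIF3 (AT1G09530), which is itself mutated in pifq, at r = 0.993, followed by AT4G16670 and SNRK2.5 (AT5G63650) at 0.992. For LTP2 they were AT2G28400, NIP1;2 (AT4G18910) and AT3G25600, with r from 0.995 to 0.998. The 6 points share 3 genotypes, and a gene that separates the groups in the same way gives a high r. So does a gene that shares the differences between replicates. KCS6, LTP2 and the genes named for them were all higher in replicate 1 than in replicate 2 in each group.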

How the data were processed

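Whole-seedling RNA was sequenced in 6 libraries, 2 biological replicates of each of 3 genotypes. Per the submitters' processing notes, the authors' tools were edgeR, HTSeq 0.6.1, TopHat2 2.1.0 and Trimmomatic, and the build was TAIR10. Library strand is not given in the sources used here. The deposited values are a signal per gene, which proved to be reads divided by a size factor: 99.98% to 100% of values were whole multiples of 1 read (tolerance 0.0505), and the value of 1 read ranged from 0.799 to 1.29.

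limma 3.58.1 (R 4.3.3), with an intensity trend, was run on log2(value + 1) for the 20581 genes that reached a value of 10 in 2 or more libraries, over all 6 libraries, two-sided, with Benjamini-Hochberg adjustment at 0.05. Fold changes of low genes are understated on this scale. Degrees of freedom were 3 (residual) and 5.15 (prior), and p-values measure the spread between these libraries. The alternatives were edgeR 4.0.16 with TMM or RLE factors and DESeq2 1.42.0, all on recovered reads, other pseudocounts, filters and scaling, 2-group fits, single libraries left out and the replicate number as a block. The scripts were tested on simulated data. No replicates matched within sampling noise.

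The 10 genes, the pathway lists and the tests were chosen with earlier results of these data known. Genes were named from a rule: the 10, up to 4 per list and mutant with the smallest p, and the mutated genes. It also took the 3 genes most like a leading member (mean value of at least 50, and a range of at least 1 on the log2 scale). Not all genes that met the rule are named above. Those left out though called with limma are LACS1 (0.91 in f1f3, 1.27 in pifq), DCR (1.97 and 1.13), HTH and CYP86A8 in f1f3, and KCS19 and CYP77A6 in pifq. LTP4 and AT4G33355 are named outside the rule. CYP96A10 and 12 further listed genes were not analysed here. Sequences, names and positions come from RefSeq for TAIR10.1. Of the 10 genes, none overlapped another annotated gene. Intervals and floors (3 reads) cover counting error only.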

Additional observations from a re-analysis of the deposited data

How the results depend on the processing

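Among the list genes that met the naming rule, no called one changed sign under any alternative. Nor did any of the 10 where its difference exceeded its residual SD. Smaller differences did change sign, among them LTP2 in f1f3 (0.20, and -0.44 at the lowest) and CER4 in pifq (0.23, and -0.11 at the lowest). For the 10 genes, 430 recomputed log2 differences moved by less than the residual SD of the gene and 43 moved by more, and MAH1 moved most, since Col had no read: its fitted difference ran from 1.24 to 5.83 in f1f3 and from 4.40 to 9.69 in pifq. Leaving out single libraries lowered the number of genes called from 5018 to between 1460 and 4650 in f1f3, from 1333 to between 358 and 1261 in pifq, and from 3291 to between 1394 and 2916 in pifq against f1f3. The pathway genes called went from 20 to between 11 and 18, from 16 to between 7 and 16, and from 29 to between 16 and 30. DESeq2 called 2434 genes in pifq against Col. With 1 library left out of a group, the other is assumed to vary like the other groups.

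The labels do not say that a replicate number marks a shared batch, and 2 numbers per group are too few to settle it. Deviations from the group means correlated between groups at r = 0.419, 0.513 and 0.218 over 17694 genes, so libraries with the same number deviated together. CER1, KCS6, KCS1, LTP1 and LTP2 were higher in replicate 1 than in replicate 2 in each group. With the replicate number as a block, the genes called were 7436 in f1f3, 2915 in pifq and 5458 in pifq against f1f3. The pathway genes called were then 29, 26 and 42, in the same order. Scaling to equal library totals moved the median of all genes to 0.12 in f1f3 and to -0.15 in pifq against f1f3. The genes called then split into 2915 higher and 2089 lower in f1f3, against 2384 and 2634, and into 1519 higher and 1895 lower in pifq against f1f3, against 1927 and 1364. The cause of these shifts was not tested. Depth limits MAH1 and CYP96A5, which had 14 reads in f1f3 and 33 in pifq.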
